A study of Mus musculus with 2 samples.

Results

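Hox genes encode the homeodomain transcription factors that give the body axis its regional identity, and in mouse they lie in 4 clusters, HoxA to HoxD. Members of the same number in different clusters are paralogues and form a paralogue group. In tissues where a cluster is silent it is classically covered by Polycomb complexes, which modify histones and keep genes off, while trithorax complexes built around MLL proteins keep Hox genes on. CTCF, a DNA-binding protein that blocks or anchors chromatin loops together with cohesin, is known to bind between Hox genes and to separate active from silent parts of a cluster.

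Members were taken from the basic GENCODE M21 annotation (mm10) as every coding gene whose symbol is Hoxa, Hoxb, Hoxc or Hoxd followed by a number: 39 of 21827 protein-coding genes. HoxA held 11 genes over 105 kb of chromosome 6, HoxB 10 genes over 174 kb of chromosome 11, HoxC 9 genes over 116 kb of chromosome 15 and HoxD 9 genes over 96.8 kb of chromosome 2. The rule used gene symbols and no peak value, but it was set with earlier results of these data known. The material was naive resting CD8 T cells, the precursors of cytotoxic T cells, from virgin male B6CASTF1/J mice aged 2 months. DNase-seq, which sequences the ends that the nuclease DNase I leaves where chromatin is open, was run on 2 libraries of this 1 group, labelled biological replicates 2 and 3. The donor label is shared and the biosample labels differ, and no source used here says whether 1 animal or several gave the cells. With 1 group there was no contrast and no test between conditions, and the values below describe these 2 libraries.

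Each library came with a shorter, stricter and a longer, permissive peak list, and each peak has a signal value set by the authors whose scaling the labels do not state. The stricter lists held 38223 peaks in replicate 2 and 17061 in replicate 3. If the signal is scaled per 1e+06 tags, its smallest step would put replicate 2 at 1.34e+08 tags and replicate 3 at 2.21e+07, so the absence of a peak from replicate 3 does not show closed chromatin. Promoter peaks lay at 5 of 6 T cell marker genes in replicate 2 and at 4 of 6 in replicate 3. Cd8a had no promoter peak in either library. None of 4 markers of other lineages (Pax5, Csf1r, Gata1 and Alb) had a promoter peak in either library.

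The strongest regions of the clusters are shown first, because the positions of open chromatin inside the clusters carry the main result. A region is placed between the Hox genes whose coding sequences flank it, so it may still lie in an intron or untranslated exon. The first set is the region found in both libraries next to a paralogue group 9 gene in each cluster. The HoxA region, between Hoxa7 and Hoxa9, covers a Hoxa7 start of the comprehensive annotation, which the basic one lacks, and lies in an untranslated exon of that gene, so only 30 bases are given (chr6:52221800-52221829, minus strand). The HoxB region lies between Hoxb9 and Hoxb8 (chr11:96278885-96279040), the HoxC region between Hoxc9 and Hoxc8 in an intron of the long Hoxc5 model (chr15:102987541-102987700) and the HoxD region between Hoxd9 and Hoxd8 (chr2:74702339-74702445), each on the plus strand of GRCm38. Capitals mark a match to the 12-letter CTCF core consensus with at most 1 mismatch on either strand. All letters are those of the reference genome, and allele differences in these B6CASTF1/J mice were not examined. The HoxC peak is in lower case throughout, its closest stretch having 2 mismatches.
HoxA, Hoxa7 to Hoxa9: aagaaaattCCAGGAGATGGCagtgtggct
HoxB, Hoxb9 to Hoxb8: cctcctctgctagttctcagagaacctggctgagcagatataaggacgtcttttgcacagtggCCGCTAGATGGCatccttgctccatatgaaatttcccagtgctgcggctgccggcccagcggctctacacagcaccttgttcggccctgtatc
HoxC, Hoxc9 to Hoxc8: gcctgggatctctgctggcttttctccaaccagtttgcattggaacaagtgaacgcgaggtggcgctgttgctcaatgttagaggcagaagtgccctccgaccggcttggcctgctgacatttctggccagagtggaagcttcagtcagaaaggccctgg
HoxD, Hoxd9 to Hoxd8: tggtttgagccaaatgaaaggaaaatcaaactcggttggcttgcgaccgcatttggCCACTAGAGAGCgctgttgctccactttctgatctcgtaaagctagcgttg

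The other set holds the remaining region among the strongest pair of HoxA, HoxB and HoxD, by mean signal rank over both libraries. They lie between Hoxa11 and Hoxa13 (chr6:52257081-52257196), between Hoxb7 and Hoxb6 in an intron of Hoxb6 (chr11:96294653-96294771) and between Hoxd8 and Hoxd4 in an intron of Hoxd3 and Hoxd4 (chr2:74715861-74716040), all on the plus strand. None had a consensus match with at most 1 mismatch, so all are in lower case.
HoxA, Hoxa11 to Hoxa13: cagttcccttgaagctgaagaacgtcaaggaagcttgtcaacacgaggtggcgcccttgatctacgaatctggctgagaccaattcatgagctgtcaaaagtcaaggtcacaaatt
HoxB, Hoxb7 to Hoxb6: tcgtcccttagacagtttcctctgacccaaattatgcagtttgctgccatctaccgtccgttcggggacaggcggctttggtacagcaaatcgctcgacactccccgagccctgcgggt
HoxD, Hoxd8 to Hoxd4: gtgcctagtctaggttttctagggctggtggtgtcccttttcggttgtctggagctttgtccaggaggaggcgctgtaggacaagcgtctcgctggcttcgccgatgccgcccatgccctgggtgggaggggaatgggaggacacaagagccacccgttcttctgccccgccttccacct

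Hox promoters were mostly without a peak. Promoter windows reached 1000 bp to each side of a coding transcript's start. A stricter promoter peak was found in both libraries at 3 of 39 Hox genes (7.69%, Wilson 95% interval 2.65 to 20.3), against 40.9% of all protein-coding genes. Intervals cover counting error only, and neighbouring genes are not independent. The 3 genes were Hoxa4, Hoxb5 and Hoxc10, 1 each in HoxA, HoxB and HoxC. None of the 9 HoxD promoters had a peak in either list of either library, which with the Wilson interval allows a share of up to 29.9%.

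Hoxa4, an anterior-group gene, had a promoter peak at 1.69 in replicate 2 and at 2.62 in replicate 3. Hoxb5, a middle-group gene, had 1.50 in replicate 2 and 2.48 in replicate 3. Hoxc10, a posterior-group gene, had 1.36 in replicate 2 and 3.16 in replicate 3. These genes thus come from different paralogue groups and no 2 are paralogues of each other.

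Calls in replicate 2, with Hoxa10 (signal 2.39) and Hoxc9 (0.836) among those added, covered 6 of 39 Hox genes (15.4%, interval 7.25 to 29.7) against 50.5% of all genes. Replicate 3 alone gave the same 3 genes as both libraries, against 40.9% of all genes. In the permissive lists 8 of 39 Hox genes were called in replicate 2 (20.5%), adding Hoxa7 and Hoxb4, against 54.3% of all genes. Permissive calls in replicate 3 covered 4 of 39 (10.3%) against 45.6%, with Hoxa10 added at a signal of 2.44. Hence 4 of 39 were called in both permissive lists, against 45.5% of all genes. Positions in the authors' deposited list of false discovery rates fell in the promoter windows of 8 of 39 Hox genes in replicate 2 and of 4 of 39 in replicate 3, against 55.2% and 46.5% of all genes.

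Hox promoters were not poor in CpG. Promoters rich in CpG dinucleotides are open in most cell types, and Hox promoters had a median of 44.5 CpG per kb, against 29.3 for other protein-coding genes. Of the 39, 16 fell in the highest of 5 equal bins of all genes by promoter CpG and 13 in the next. In the highest bin, 1 of 16 Hox promoters had a peak in both libraries against 67.8% of all genes there. In the next bin 2 of 13 did against 68.7%, in the middle bin 0 of 7 against 54.7% and in the bin below it 0 of 3 against 12.3%. HoxD promoters, with 0 of 9 called, had the highest median of the clusters at 71.5 CpG per kb, followed by HoxA with 50.5, HoxC with 44.0 and HoxB with 37.8.

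**Figure D1:**
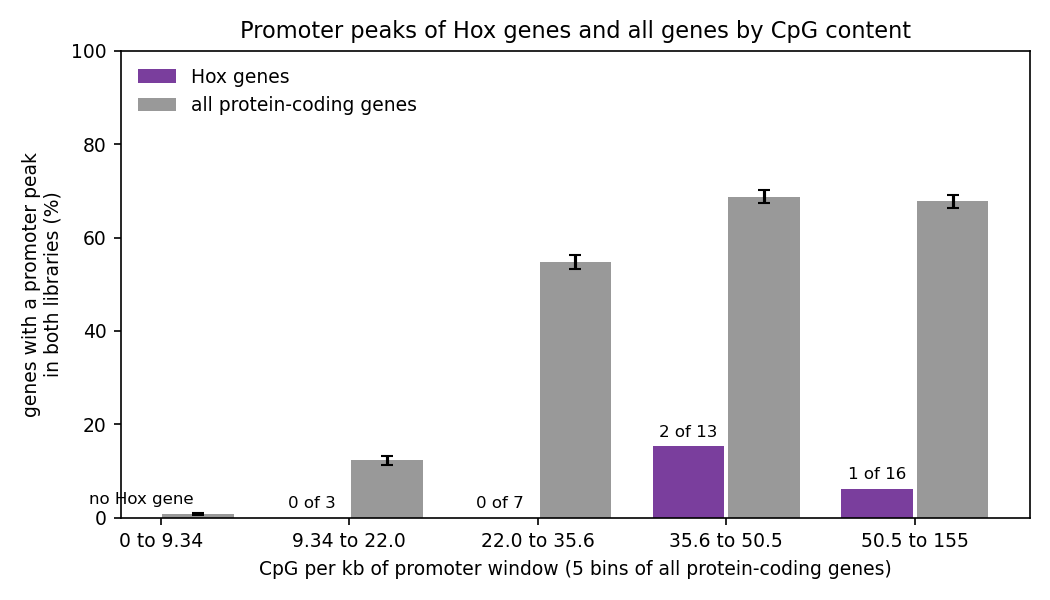
Percent of genes with a stricter promoter peak in both libraries, for Hox genes (purple, with counts) and all protein-coding genes (grey, Wilson 95% intervals), in 5 bins of promoter CpG per kb. Hox genes reach 2 of 13 and 1 of 16 in the upper bins, where all genes reach 68.7% and 67.8%.

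Counted over gene bodies with 5 kb either side, the Hox genes were close to the background. A stricter peak in both libraries lay in the window of 18 of 39 Hox genes (46.2%, interval 31.6 to 61.4), against 51.9% of all genes. The counts were 5 of 11 in HoxA, 5 of 10 in HoxB, 4 of 9 in HoxC and 4 of 9 in HoxD. Hox windows overlap, and the 18 genes shared 11 distinct regions, with up to 3 genes on 1 peak. The count rests on the flanks: with gene bodies alone it was 6 of 39, and no share of all genes is given at that setting. In replicate 2 the count was 24 of 39 (61.5%) against 63.9% of all genes, and in replicate 3 it was 18 of 39 (46.2%) against 52.0%.

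Most regions of both libraries in the cluster windows lay inside the gene spans. Over the 4 gene spans, from the first to the last Hox gene, 12 regions were found in both libraries, a density of 2.44 per 100 kb (exact Poisson 95% interval 1.26 to 4.26), against 0.584 per 100 kb over the whole genome. In the flanks of 50 kb on each side there was 1 region, at 0.250 per 100 kb (interval 0.00633 to 1.39), beyond Hoxb1. Of the 12, taken at the width of their permissive peaks, 6 overlapped the annotated model of a Hox gene and 0 overlapped coding sequence. The Hoxb5 promoter region reached its model, which starts at 96303336, only at that width. Its stricter peaks ended at 96303318 in replicate 2 and at 96303289 in replicate 3. The same shares over all regions are not given here. Sites called only in the permissive list of 1 library overlapped coding sequence of Hoxb2, Hoxb4, Hoxc9 and Hoxc10. The spans are gene-dense, and no set of regions matched for gene density was used. Densities per 100 kb were 2.85 in HoxA with 3 regions, 2.30 in HoxB with 4, 1.73 in HoxC with 2 and 3.10 in HoxD with 3. Their intervals overlap, so these counts do not separate the clusters.

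**Figure D2:**
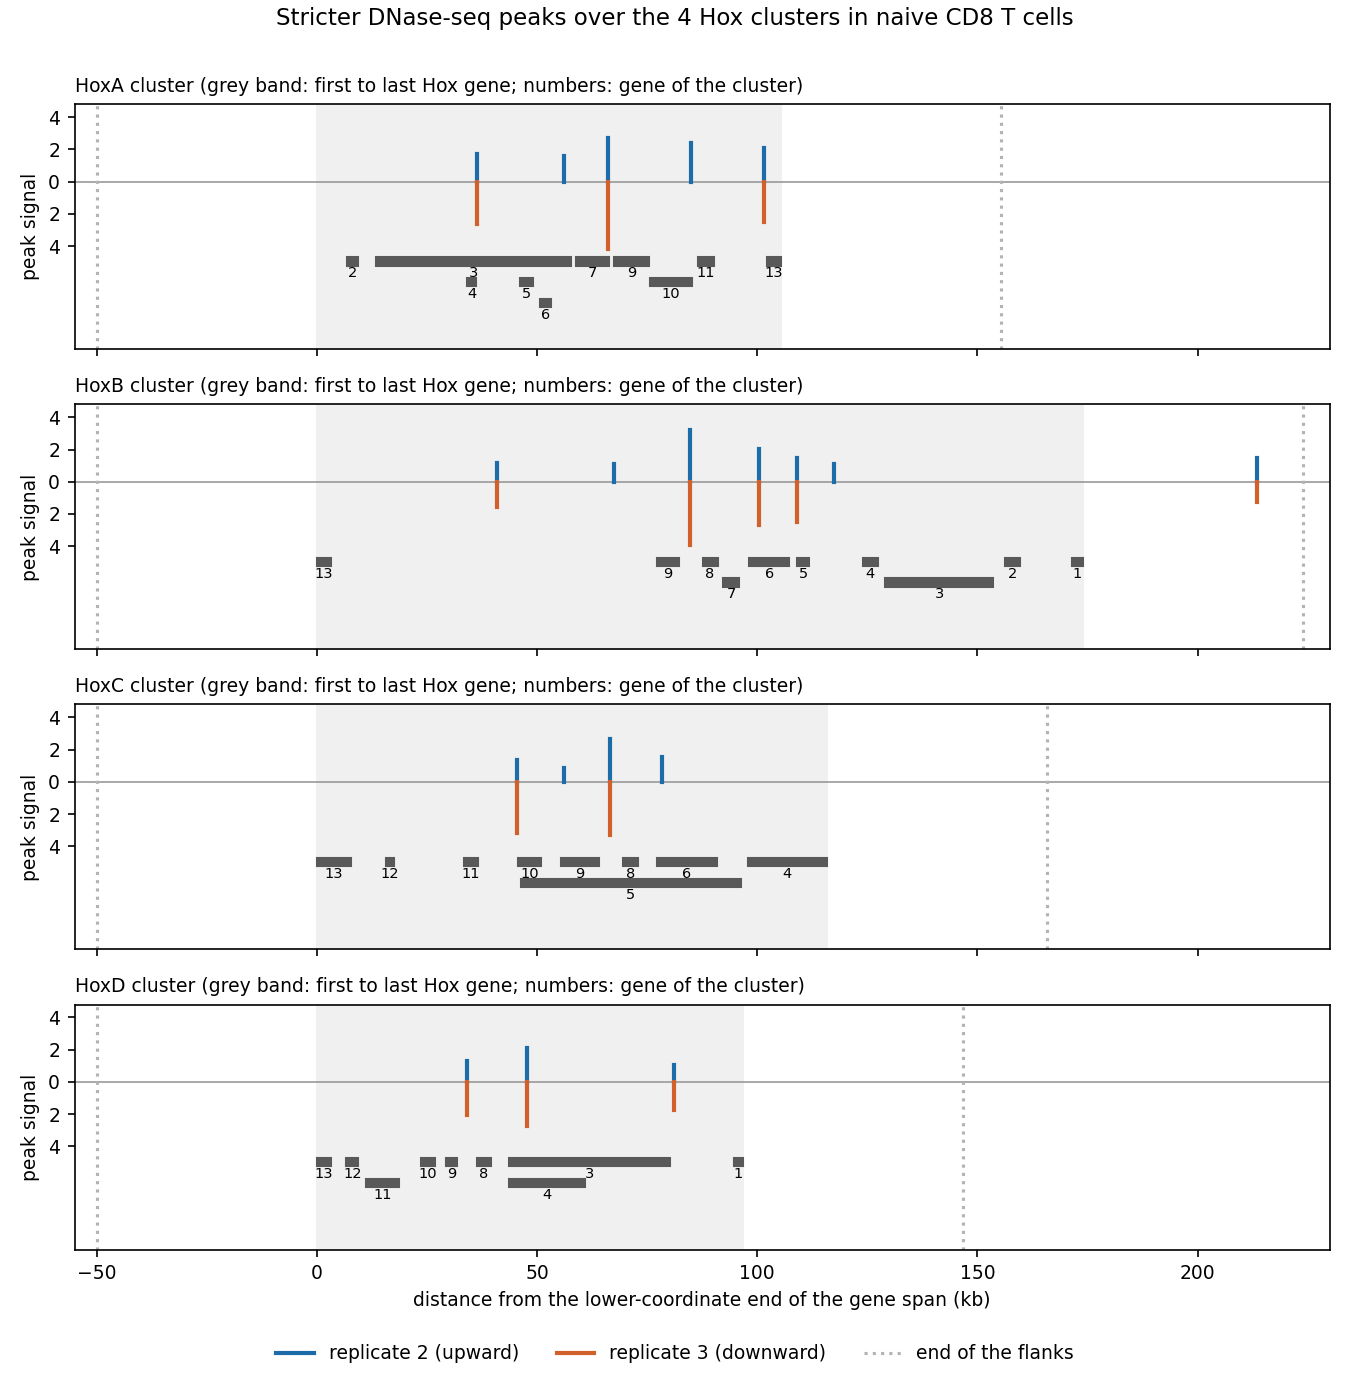
Stricter peaks over each Hox cluster with 50 kb either side: position in kb from the lower-coordinate end of the gene span, signal of replicate 2 upward and of replicate 3 downward, Hox genes as grey bars numbered by paralogue group. The 12 regions of both libraries lie within the grey bands, and 1 more lies in the HoxB flank.

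HoxA held its strongest region between Hoxa7 and Hoxa9, at 2.74 in replicate 2 and 4.16 in replicate 3. The region between Hoxa11 and Hoxa13 had 2.07 in replicate 2 and 2.48 in replicate 3. The Hoxa4 promoter was the remaining one. In replicate 2 there were 6 stricter peaks in the HoxA span and in replicate 3 there were 3.

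HoxB had its strongest region between Hoxb9 and Hoxb8, at 3.19 in replicate 2 and 3.93 in replicate 3, the highest replicate 2 signal of the 12. The intron of Hoxb6 had 2.06 in replicate 2 and 2.71 in replicate 3. In the long gap between Hoxb13 and Hoxb9, a region had 1.15 in replicate 2 and 1.54 in replicate 3. The 3-prime side of the cluster, with Hoxb4, Hoxb3, Hoxb2 and Hoxb1, held no region of both libraries.

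HoxC had a region between Hoxc9 and Hoxc8 at 2.63 in replicate 2 and 3.30 in replicate 3, and the Hoxc10 promoter was its only other one. In HoxD the strongest region was not next to Hoxd9. The region between Hoxd8 and Hoxd4 had 2.08 in replicate 2 and 2.76 in replicate 3, the one between Hoxd9 and Hoxd8 had 1.31 and 2.08, and the one between Hoxd3 and Hoxd1 had 1.07 and 1.76. The posterior genes Hoxd13 to Hoxd10, which pattern limbs and genitalia, had no stricter peak within 5 kb in either library.

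The gap between paralogue groups 8 and 9 held a region of both libraries in all 4 clusters. In HoxA, which has no group 8 gene, it is the gap between Hoxa7 and Hoxa9. That region covers the Hoxa7 start named above and counts as a promoter with the comprehensive annotation. With equal numbers of strongest peaks in each library, 3 of the 4 clusters kept a region there and HoxD lost its own. That alternative was planned for the counts, but it was applied to this gap after seeing the data. Every other boundary between neighbouring groups was spanned by such a gap in at most 2 clusters with the stricter lists. In the permissive lists of both libraries, the boundary between groups 6 and 7 was also spanned in all 4 clusters. The added regions there lay between Hoxa6 and Hoxa7 (1.61 in replicate 2, 2.53 in replicate 3) and between Hoxc8 and Hoxc6 (1.51 and 1.45). The pattern at groups 8 and 9 was noticed after the values were seen and was not tested. The 4 gaps measured 6229 bp in HoxA, 8106 bp in HoxB, 6643 bp in HoxC and 6129 bp in HoxD between coding sequences.

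Hox regions had lower median signals than all regions. Over the 12, the signal ranged from 1.07 to 3.19 in replicate 2 with a median of 1.87, and from 1.54 to 4.16 in replicate 3 with a median of 2.67. Over all 15930 regions found in both libraries the medians were 2.92 in replicate 2 and 3.21 in replicate 3. Promoters made up 3 of the 12 Hox regions and 9474 of all 15930. For all regions away from promoters the medians were 2.02 in replicate 2 and 2.30 in replicate 3. Of the 9 Hox regions away from promoters, the middle value was 2.07 in replicate 2 and 2.71 in replicate 3. Each lay above the median of all such regions, and the difference was not tested. Replicate 3 had the higher value at 12 of 12 Hox regions, with a median ratio to replicate 2 of 1.43, against 63.0% of all regions and 70.4% of those away from promoters, where the median ratio was 1.16. The part of depth and scaling in that was not tested.

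**Figure D3:**
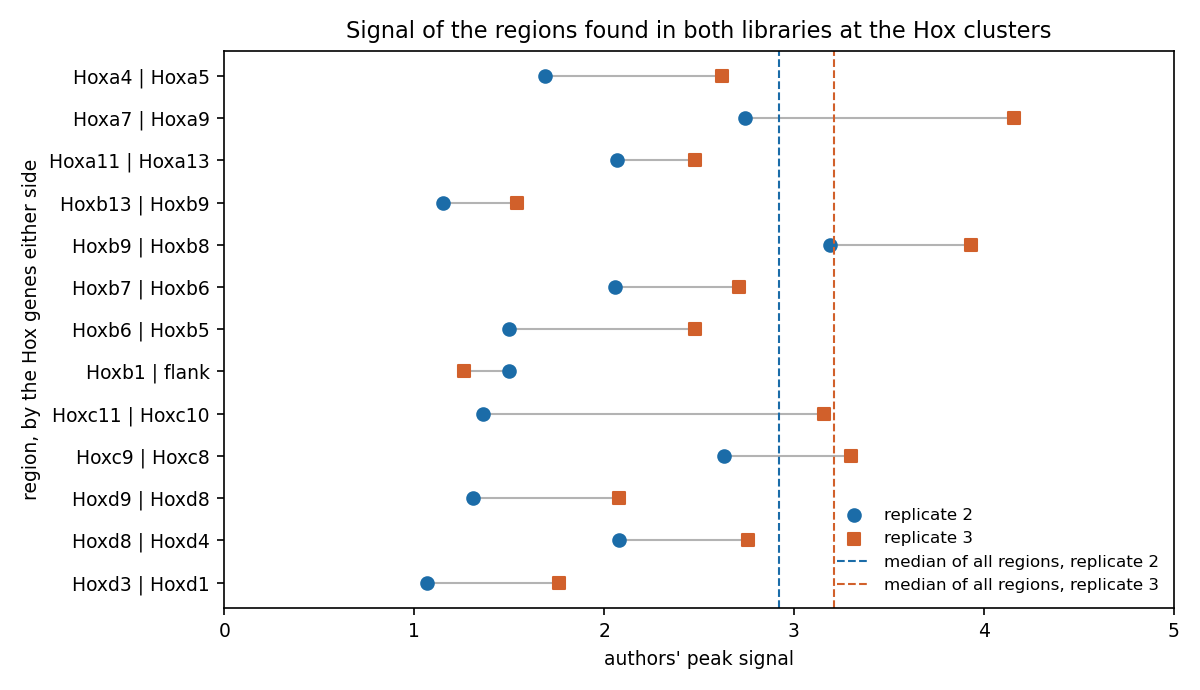
The authors' peak signal in replicate 2 (circles) and replicate 3 (squares) of each region found in both libraries at the Hox clusters, named by the Hox genes on either side. Dashed lines are the medians of all regions, 2.92 in replicate 2 and 3.21 in replicate 3; most Hox values lie below them.

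Footprints are short stretches protected from cutting within open chromatin. In the gene spans there were 61 in replicate 2, of which 50 lay in stricter peaks, and 18 in replicate 3, of which 17 did. The density was 12.4 per 100 kb in replicate 2 (interval 9.49 to 15.9) against 5.37 genome-wide, and 3.66 per 100 kb in replicate 3 (interval 2.17 to 5.78) against 1.10. Stricter peaks were denser in the spans too, at 3.86 per 100 kb against 1.40 in replicate 2 and 2.44 against 0.626 in replicate 3. Whether footprints were denser than the peaks alone would give was not tested. Of the 18 footprints of replicate 3, 13 (72.2%) overlapped one of replicate 2, against 66.9% of all 29967 in that library.

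With the reported setting, the CTCF consensus was not seen more often in Hox regions than elsewhere. With at most 1 mismatch it was found in 3 of 12 regions (25.0%, interval 8.89 to 53.2), against 29.4% of regions found in both libraries outside the Hox windows. Away from promoters it was found in 3 of 9 Hox regions (33.3%) against 58.5% of regions elsewhere, where 1 of the 9 is the HoxA region on the added Hoxa7 start, and at promoters in 0 of 3 against 9.61%. In stretches of the same widths 1000 bp to the side it was found in 3.35%. The 3 matches are those in capitals above, next to Hoxa9, Hoxb9 and Hoxd9. All 3 lay under a footprint of replicate 2 and 2 of them under one of replicate 3. This did not set them apart. In the Hox regions without a match, the closest stretch also lay under a replicate 2 footprint, except between Hoxc9 and Hoxc8. Some of those stretches lay under a footprint of replicate 3 too. The count depends on the definition: 5 settings were tried in turn, and the others gave between 0 and 10 of 12, each with its own background in the closing section. Over the 12 regions, the loosest and the last setting put the Hox share above its background, and the rest put it below. Away from promoters only the loosest put it above. A match is a description of letters, not evidence of binding.

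Most genes that regulate Hox clusters had an open promoter. A promoter peak in both libraries lay at 10 of 11 genes of Polycomb repressive complex 2, at 14 of 18 of complex 1 and at 12 of 13 MLL and trithorax genes, against 40.9% of all genes. Their promoters were rich in CpG, with medians of 60.5 per kb for complex 2, 56.7 for complex 1 and 51.0 for the MLL and trithorax list, and 67.8% of all genes in the highest CpG bin were called. Ezh1, a histone methyltransferase of complex 2, had 6.20 in replicate 2 and 7.32 in replicate 3. Kmt2a, which encodes MLL itself, had 7.27 in replicate 2 and 7.05 in replicate 3. Kdm6b, a histone demethylase that opposes Polycomb, had no promoter peak in either library.

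CTCF and cohesin genes had a promoter peak in both libraries at 11 of 11, at a median of 81.0 CpG per kb, with Rad21, a cohesin subunit, at 7.31 in replicate 2 and 7.81 in replicate 3. Of all genes 40.9% had one, and 67.8% of those in the highest CpG bin. The TALE genes, whose proteins bind DNA together with Hox proteins, had one at 3 of 9 (33.3%), near the share of all genes. They were Pknox1, Pbx3 and Pbx4, and the median of the list was 35.2 CpG per kb. Another 2 TALE genes had a promoter peak in replicate 2 only. Meis1, Meis2 and Pbx2 had none in either library. Among ParaHox and related homeobox genes, 0 of 13 had a promoter peak in either library, Cdx2 among them. Of the other developmental homeobox genes, 1 of 24 had one in both libraries. Median promoter CpG was 50.9 per kb in the ParaHox list and 56.1 per kb in the other homeobox list, above the 44.5 of the Hox genes.

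**Figure D4:**
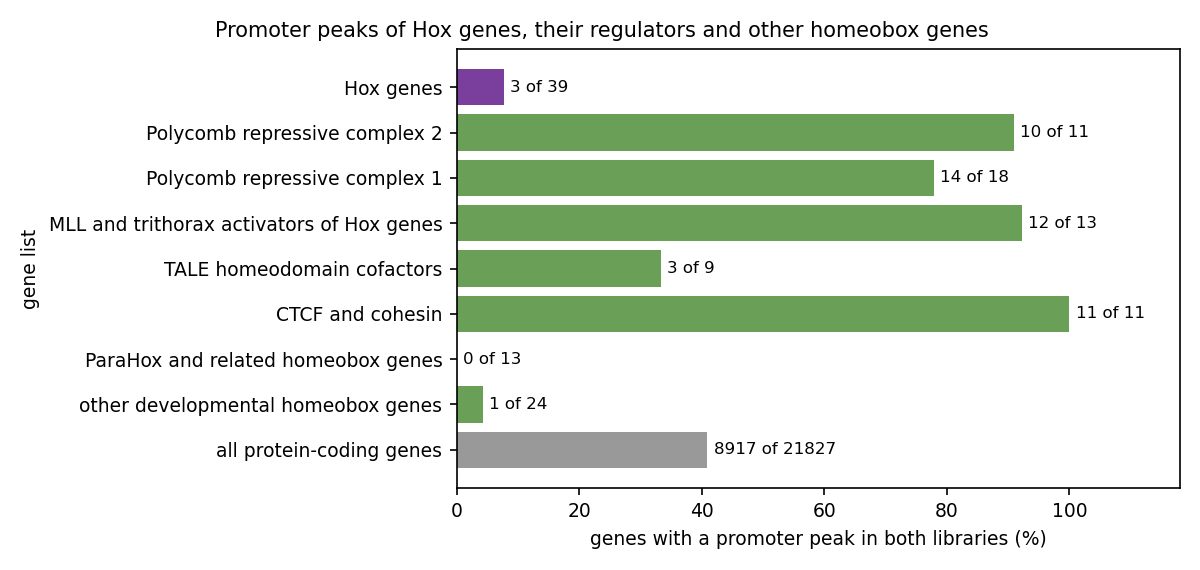
Percent and count of genes with a stricter promoter peak in both libraries, for Hox genes, lists of their regulators and other homeobox genes, and all protein-coding genes. Hox genes (3 of 39) and both homeobox lists lie low, and the Polycomb, MLL, CTCF and cohesin lists lie above all genes.

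Of the 4 other protein-coding genes overlapping the cluster windows, Ttll6 had a permissive promoter peak in both libraries and no stricter one. Evx2, a homeobox gene next to Hoxd13, had no promoter peak in either list. Gm28308 and 5730596B20Rik, both in the HoxA span, had none either.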

How the data were processed

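DNase-seq libraries of naive CD8 T cells were compared at the Hox clusters. Peak lists, false discovery rates and footprints were made by the authors from each library's own mm10 alignments and not pooled, per the notes deposited with each library. No source used here names the callers. The authors' deposited peak signal has an unstated scaling. The deposited false discovery rates are q-values per stretch of positions. Footprints were used as intervals only.

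Overlap meant 1 bp or more. A region of both libraries joins overlapping stricter peaks of each. CpG was counted in promoter windows of GRCm38. Named genes are all Hox genes, the other coding genes of the cluster windows and, per list, up to 3 of highest mean promoter signal rank and up to 3, alphabetically, with no peak. The members and gene lists were chosen with earlier results of these data known. The design named a search for the CTCF core consensus and no mismatch limit; at most 1 mismatch was the first limit run and is the one reported. Other limits and a weight matrix in 2 versions were added after its Hox count was seen, and the second matrix was changed because the first looked too strict on the Hox regions. All 5 settings are reported. A few items that these rules select are not reported here or drawn in the cluster map. Code was tested on simulated data. Python 3.11.15, numpy 2.4.6, scipy 1.17.1, pysam 0.24.0 and matplotlib 3.10.9 were used.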

Additional observations from a re-analysis of the deposited data

How the results depend on the processing

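Of 52 alternative values over 9 results, 40 were within 1.5 times the reported one. The reported 3 Hox genes with promoter peaks in each library became 5 with the start sites of the comprehensive annotation, which adds Hoxa7 and Hoxc5. This alternative was chosen after seeing the data. The share of all genes at that setting is not given, so the change cannot be called particular to Hox genes. Leaving out each library gave 3 to 6 genes, 6 without replicate 3. The 18 genes with a peak in body and flanks became 6 with no flank, and 18 to 24 when leaving out each library. Cluster counts here include the 50 kb flanks. The HoxA count of 3 became 5 with the permissive lists and 3 to 6 when leaving out each library. The HoxB count of 5 became 5 to 7 when leaving out each library. The HoxC count of 2 became 1 with equal numbers of strongest peaks and 2 to 4 when leaving out each library. The HoxD count of 3 became 1 with equal numbers of strongest peaks and 5 with flanks of 100 kb, and stayed at 3 without either library. Without replicate 3 the higher counts come from the larger list of replicate 2.

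The CTCF count rests on the definition, and its settings were chosen after seeing the data except the reported one, 3 of 12 against 29.4% elsewhere. No mismatch gave 0 of 12 against 11.6%, and at most 2 mismatches gave 10 of 12 (83.3%) against 56.4%. The first weight matrix gave 2 of 12 (16.7%) against 24.3%, and the second, changed after that count was seen, 5 of 12 (41.7%) against 28.0%. Away from promoters these were 0 of 9 against 26.0%, 8 of 9 (88.9%) against 78.4%, 2 of 9 (22.2%) against 52.5% and 5 of 9 (55.6%) against 58.9%. Over the 12 regions, a share above the background was thus obtained only with the loosest and the last setting. Away from promoters it was obtained only with the loosest. Neither setting is used to describe Hox regions. No paired analysis was possible because there is 1 group.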

Other observations

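The clusters also hold noncoding genes. Of 7 miRNA genes, among them Mir10a and Mir10b and the Mir196 genes, 0 had a stricter peak within 1000 bp of the start in either library, against 9.63% of all miRNA genes. Of 36 other noncoding genes, 2 had one in both libraries, against 6.48% of all genes of the same annotation types: 9530018H14Rik in HoxA, whose window holds the region between Hoxa11 and Hoxa13, and Hoxd3os1, antisense in HoxD, whose window holds the region between Hoxd8 and Hoxd4.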
